A study of Mus musculus with 6 samples.

Results

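The 35 genes described here are the mouse genes of antigen presentation and of the interferon response that were picked out by symbol: 3 for MHC class I, 4 for its regulation and peptide loading, 3 immunoproteasome subunits, 3 for MHC class II, 4 interferon receptor chains, 5 transcription factors and 13 antiviral effectors. All 35 were found among the 24354 genes of the table, and they were listed by symbol with earlier results of these data known. RNA was taken from the choroid plexus (ChP), the secretory epithelium that makes cerebrospinal fluid, of 3 adult samples (postnatal day 60) and 3 embryonic samples (embryonic day 16.5, E16.5). Every sample carried the same genotype, FoxJ1:cre x bacTRAP (EGFP:L10a), and none had a treatment. In these mice the Foxj1 promoter drives Cre in cells that bear motile cilia, Cre switches on a green fluorescent ribosomal protein, and pulling down that protein enriches the mRNA on the ribosomes of those cells (translating ribosome affinity purification, TRAP). The study's methods pool several adults or several litters for a sample, while the series text counts mice per age, so the p-values below measure the spread between samples and whether that spread lies between single animals is not settled by the sources used here.

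Nearly all cells show peptides from their own proteins on MHC class I, a heavy chain such as H2-K1 or H2-D1 bound to beta-2 microglobulin. The peptides are cut by the proteasome, carried into the endoplasmic reticulum by the transporter Tap1 and Tap2, and loaded with the help of tapasin (Tapbp). Interferons raise this machinery: type I interferon signals through Ifnar1 and Ifnar2 and a complex that holds Stat2 and Irf9, interferon gamma through Ifngr1 and Ifngr2, and the immunoproteasome subunits Psmb8, Psmb9 and Psmb10 then take the places of Psmb5, Psmb6 and Psmb7. In brain barriers the choroid plexus is known as a place where interferon signalling and immune cell traffic meet.

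The promoters of these genes are known for short elements that interferon-activated and inflammation-activated factors read, and 4 of them are printed because they carry the 3 elements searched. The sequences are RefSeq's on GRCm38.p6, the assembly behind mm10, and each is the 250 bases before the gene's start, 5′ to 3′ on the gene's strand, with matches in capitals. The elements were the interferon-stimulated response element (ISRE, GAAANNGAAA), the gamma-activated site (GAS, TTCNNNGAA) and a kappaB element (GGGNNTTCCC), each searched on both strands. 
B2m, ISRE, chr2:122147437-122147686 (+): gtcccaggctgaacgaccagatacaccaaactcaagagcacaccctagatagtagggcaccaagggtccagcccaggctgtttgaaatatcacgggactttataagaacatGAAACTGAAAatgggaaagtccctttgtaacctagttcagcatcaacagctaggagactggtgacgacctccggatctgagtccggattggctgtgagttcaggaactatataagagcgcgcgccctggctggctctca
Isg15, ISRE with 3 overlapping matches, chr4:156200819-156201068 (-): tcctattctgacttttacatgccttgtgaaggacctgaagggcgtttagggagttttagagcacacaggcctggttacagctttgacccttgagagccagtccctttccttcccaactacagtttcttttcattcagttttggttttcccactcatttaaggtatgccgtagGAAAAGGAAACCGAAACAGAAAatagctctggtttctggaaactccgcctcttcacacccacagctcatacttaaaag
Ifnar2, GAS, chr16:91372533-91372782 (+): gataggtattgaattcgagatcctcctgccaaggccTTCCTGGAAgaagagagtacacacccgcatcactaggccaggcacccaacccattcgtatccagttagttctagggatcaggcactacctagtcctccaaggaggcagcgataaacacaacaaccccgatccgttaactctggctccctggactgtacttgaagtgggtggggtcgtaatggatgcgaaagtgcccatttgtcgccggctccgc
H2-K1, kappaB, chr17:34000348-34000597 (-): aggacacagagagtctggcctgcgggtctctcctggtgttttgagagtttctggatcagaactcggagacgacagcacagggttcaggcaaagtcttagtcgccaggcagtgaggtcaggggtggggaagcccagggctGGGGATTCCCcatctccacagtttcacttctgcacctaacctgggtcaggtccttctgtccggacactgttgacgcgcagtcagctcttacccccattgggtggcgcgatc

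Of the 35 genes, 29 had a promoter entry, a window from 250 bases before to 50 bases after the start. The ISRE letters stood in 11 of them (37.9%), against 3.99% of the 27025 genes with an entry: B2m, Stat2, Ifit1, Ifit3, Ifitm2, Ifitm3, Isg15, Bst2, Rsad2, Gbp2 and Gbp3. The GAS letters stood in 7 (24.1%, against 9.55%): Psmb8, Ifnar1, Ifnar2, Irf1, Ifit2, Ifitm3 and Bst2. The kappaB letters stood in 3 (10.3%, against 2.01%), which were H2-K1, H2-D1 and H2-Aa. The windows of Tap1 and Psmb9 lie on opposite strands and have 275 bases in common, so these neighbours are not independent entries. Among the genes with a match, Ifit1 and Ifit3, Ifitm2 and Ifitm3, and Gbp2 and Gbp3 are relatives that lie close together. H2-K1 and H2-D1 are relatives as well, so the matches of such genes may not be independent and the shares are descriptions. A match is a description of these letters and not of a bound factor.

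The values are FPKM, in which read fragments are divided by the transcript's length and by the size of the library, so levels of different genes can be compared. The depth in reads is not stated, but the steps between low values put the E16.5 samples at 4.01 to 5.03 times the depth of adult replicate 3, and adult replicates 1 and 2 at 1.27 and 2.84 times. Adult replicate 3 stood apart with 7599 genes above 0, against 9487 to 13077 in the others, and 36.4% of the genes tested were listed at 0 in it. A small RNA locus, Mir6236, took 32.7 to 51.7% of the summed FPKM in the adult samples and 13.3 to 15% at E16.5, and its part in the changes below was not tested. The median log2 change of all tested genes was -0.86, and it ranged from -1.48 to 0.01 with other scalings. An exact 0 can be a failed estimate in such a table, since B2m was listed at 0 in adult replicate 3 and the standard proteasome subunit Psmb6 in adult replicate 1, although nearly every cell uses both. The ChP epithelium markers were present, with summed FPKM of 39942 to 55171 in adult ChP and 3073 to 3517 at E16.5. The adult sums rest largely on Ttr and Enpp2. Ttr, the transthyretin that the epithelium secretes, was listed at 0 in all 3 E16.5 samples and at 20922, 31302 and 29741 FPKM in the adult ones. Enpp2 measured 14886, 18732 and 16409 FPKM in adult ChP and 242, 303 and 274 at E16.5. Of the 12 markers 5 were called higher in adult ChP (Ttr, Kl, Kcnj13, Enpp2 and Prlr) and 1, Otx2, higher at E16.5. All adult samples lay above all E16.5 samples for 8 and below them for 3, so the sums do not measure the amount of epithelium.

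Few of these genes passed the test between adult and E16.5 ChP, and many of the interferon-induced effectors were listed at or near 0 at both ages. Of the 35 genes, 22 had a mean above 1 FPKM over the 6 samples and were tested, beside 11601 of the 24354 genes of the table. A value above 0 in at least 1 sample was listed for 30 of the 35, beside 14894 of the 24354. Zeros throughout are therefore not particular to these genes. A gene was called at an adjusted p under 0.05 in limma with Benjamini-Hochberg adjustment over all 11601 genes tested. None of the 22 was called higher in adult ChP, where 2.12% of all tested genes were, and 1, Psmb10, was called higher at E16.5, where 8.83% were. In either direction that is 1 of 22 beside 10.9% of all tested genes. At an unadjusted p under 0.05 there were 1 higher in adult ChP and 3 higher at E16.5, beside 3626 of all 11601 genes.

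The median log2 change of the 22 genes, adult minus E16.5 on the log2(FPKM + 1) scale, was -0.76 beside -0.86 for all tested genes, with 9 above 0 and 13 below. All 3 adult samples lay above all 3 E16.5 samples for Ifnar2 alone among the 22 (7.39% of all tested genes do so), and below them for Psmb8, Psmb10, Stat2 and Ifitm2 (31% of all tested genes do so). The other 17 overlapped. The 13 genes not tested were Nlrc5, Psmb9, H2-Aa, H2-Ab1 and 9 antiviral effectors, and 5 of them, H2-Aa, Isg15, Mx1, Usp18 and Gbp2, were listed at 0 in all 6 samples. Only 8 of the 35 were above 0 in every sample: H2-K1, Tap2, Tapbp, Ifnar1, Ifnar2, Ifngr2, Irf3 and Ifitm2. The number above 0 in a library was 18, 22 and 9 in adult replicates 1 to 3 and 21, 27 and 24 in E16.5 replicates 1 to 3, and so was smallest in the library with the lowest depth. In bulk RNA of this kind, fewer cells of a type and less RNA in each cell cannot be told apart.

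**Figure D1:**
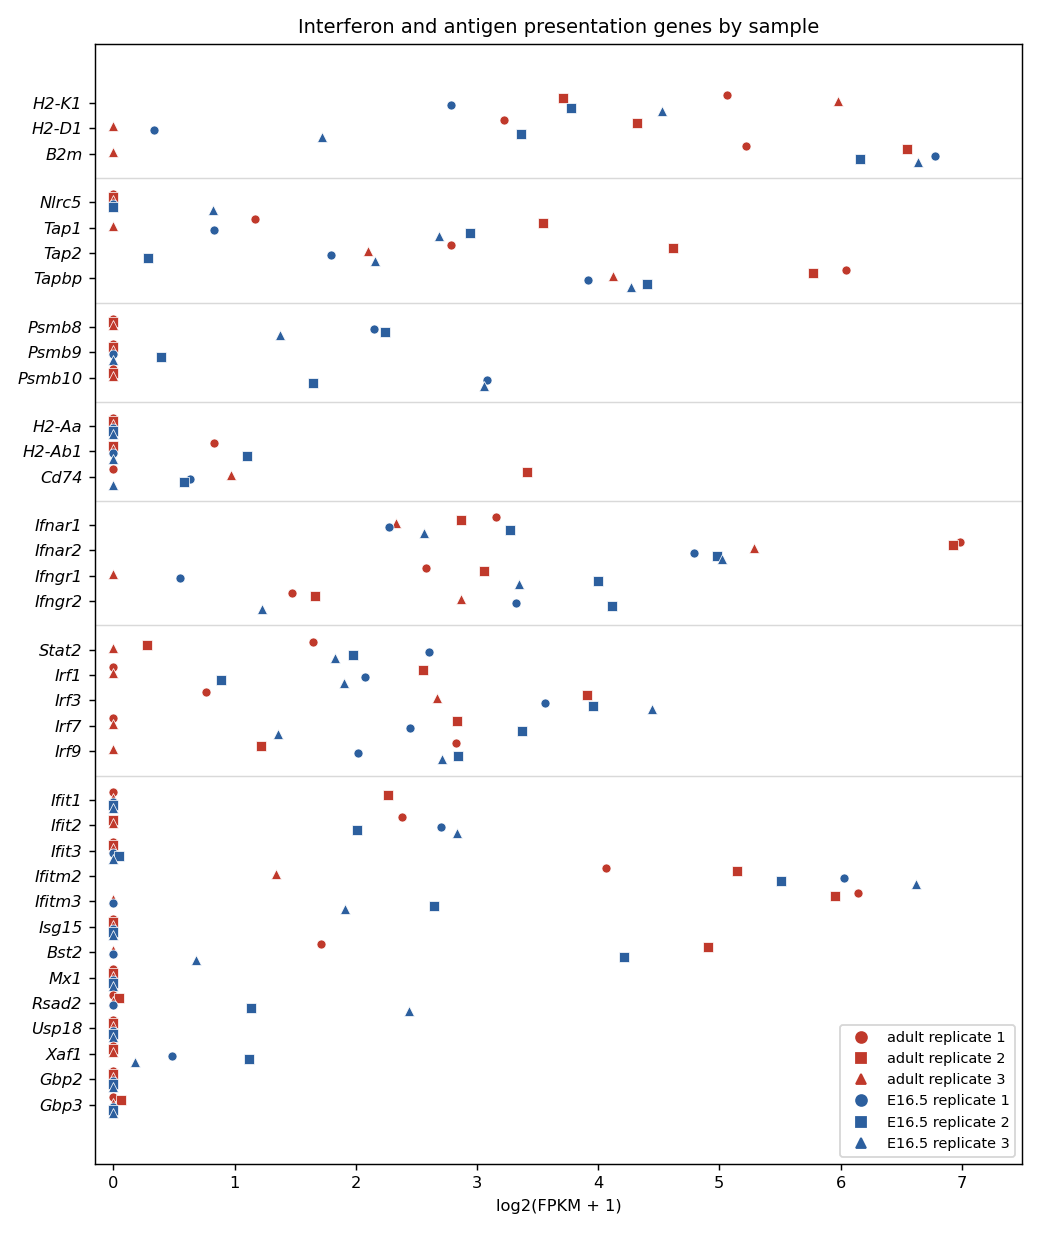
Level of each of the 35 genes in each sample, as log2(FPKM + 1), with adult samples in red and E16.5 samples in blue and the marker shape giving the replicate number. Rows are ordered by role from MHC class I at the top to antiviral effectors at the bottom. B2m, Ifnar2, Tapbp, Ifitm2 and Ifitm3 reach the right side, while Isg15, Mx1, Usp18, Gbp2 and H2-Aa sit at 0 in all 6 samples.

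**Figure D2:**
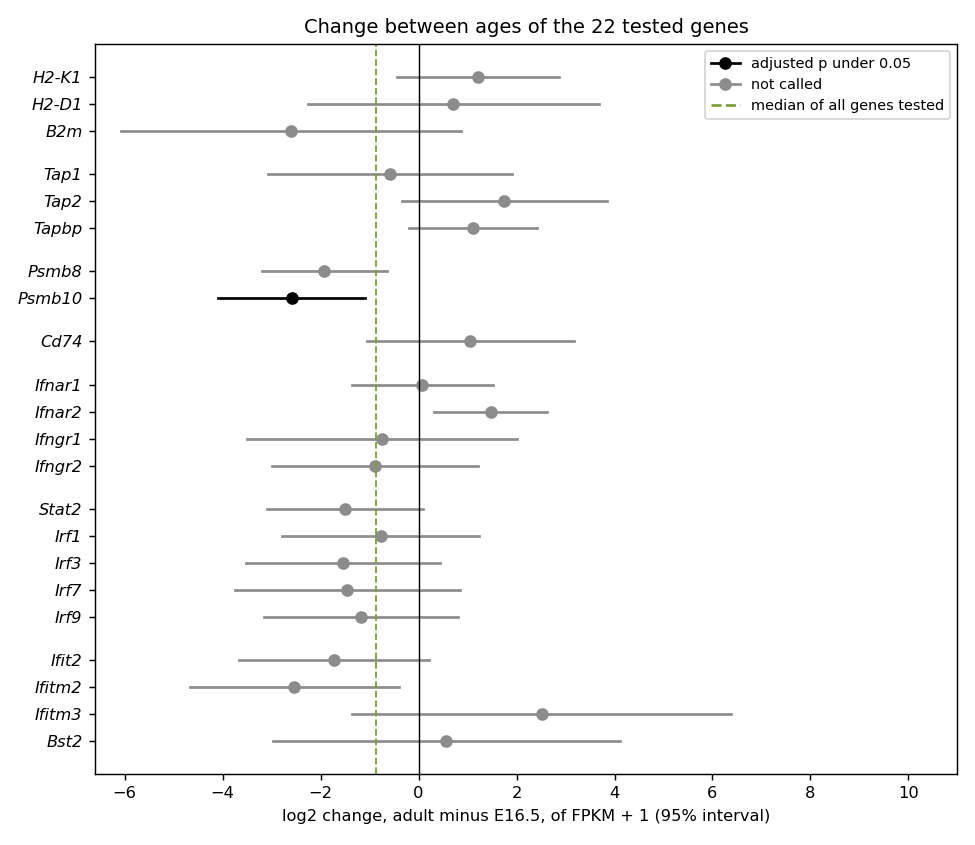
Change between ages of the 22 tested genes (adult minus E16.5, log2 of FPKM + 1) with 95% intervals from limma, drawn black where the adjusted p is under 0.05 and grey otherwise. The dashed line is the median of all genes tested, -0.86. Psmb10 is the only gene drawn in black, and for it and Psmb8, listed at 0 in every adult sample, the position depends on the pseudocount.

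The immunoproteasome held the only call. Psmb10 (chr8:105935735-105938444, minus strand, GRCm38), the subunit that takes the place of Psmb7, was listed at 0 in all 3 adult samples and at 7.47, 2.13 and 7.31 FPKM in the E16.5 samples. Its adjusted p was 0.0447 in limma with Benjamini-Hochberg adjustment. No fold is given, since the adult samples are all at 0. Whether those zeros are low levels or failed estimates was not tested. None of the 3 promoter elements stood in its window.

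Psmb8 (chr17:34197721-34201454, plus strand), the counterpart of Psmb5, was likewise listed at 0 in each adult sample, with 3.44, 3.72 and 1.60 FPKM at E16.5. It missed the threshold, with an adjusted p of 0.064 in limma after Benjamini-Hochberg adjustment. Psmb9, the counterpart of Psmb6, had a value in E16.5 replicate 2 alone, of 0.314 FPKM. So 3 of 3 subunits were listed at 0 in every adult sample, and none was abundant at E16.5. Of all tested genes, which leave out Psmb9, 22%, 10.3% and 36.4% were at 0 in adult replicates 1 to 3, and 3.68 to 4.02% in the E16.5 samples. The share of genes at 0 in all 3 adult samples together was not counted, so how unusual 3 of 3 is was not tested. For Psmb9, 3 reads would be worth 0.667, 0.297 and 0.844 FPKM in the adult samples, so its adult zeros say little.

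The standard subunits give the scale of these levels. Per length, Psmb10 stood at 5.62%, 1.03% and 5.63% of the FPKM of Psmb7 in the E16.5 samples, and Psmb8 at 13%, 23.9% and 4.35% of that of Psmb5. Of the 50-base stretches of Psmb5 54.1% also occur in another gene, so its level and the share of Psmb8 are uncertain. Psmb7 itself measured 49.0, 64.6 and 111 FPKM in adult ChP and 133, 207 and 130 at E16.5, a log2 change of -1.10 with an adjusted p of 0.1 (limma, Benjamini-Hochberg). Pomp, the chaperone that assembles both kinds of proteasome, was called higher at E16.5, with 89.0, 153 and 107 FPKM in adult ChP and 271, 340 and 250 at E16.5 (log2 change -1.32, SE 0.29, adjusted p = 0.0324 in limma with Benjamini-Hochberg adjustment). The call for Pomp was lost under 8 of 17 alternatives, where the log2 change ran no closer to 0 than -0.85. The call for Psmb10 was made under 6 of 16 alternatives (adjusted p 0.0211 to 0.249 in limma). It was lost whenever any of the 6 samples was left out, with an adjusted p of 0.0618 in limma without adult replicate 3.

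MHC class I itself was expressed at both ages with a wide spread, and none of its 3 genes was called. The heavy chain H2-K1 (chr17:33996017-34000347, minus strand) measured 32.5, 12.1 and 62.0 FPKM in adult ChP and 5.91, 12.7 and 22.1 at E16.5. Its log2 change was 1.22 (95% interval -0.43 to 2.87), with an adjusted p of 0.273 in limma after Benjamini-Hochberg adjustment. The groups overlapped, since adult replicate 2 lay between E16.5 replicates 1 and 2. The second heavy chain, H2-D1, measured 8.32, 19.0 and 0 FPKM in adult ChP and 0.26, 9.27 and 2.30 at E16.5. These heavy chains come from a family of near copies, and 9.63% of the 50-base stretches of H2-K1 and 12.8% of those of H2-D1 also occur in another gene, so the split of reads between them is uncertain.

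B2m (chr2:122147686-122153083, plus strand), the light chain that every class I molecule needs, was the most abundant of the 35 by its mean over the 6 samples, 67.8 FPKM. It measured 36.3, 92.3 and 0 FPKM in adult ChP and 109, 70.3 and 98.6 at E16.5. The log2 change of -2.60 came with an interval of -6.07 to 0.86 and an adjusted p of 0.265 (limma, Benjamini-Hochberg), and was -0.64 without adult replicate 3, the sample in which it was listed at 0. Nlrc5, the transactivator that switches on class I genes in immune cells, had 0.764 FPKM in E16.5 replicate 3 and 0 in the other 5 samples.

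Among the loading genes none was called, and tapasin was the most abundant. Tapbp (chr17:33915899-33929292, plus strand) measured 65.1, 53.7 and 16.4 FPKM in adult ChP and 14.1, 20.2 and 18.3 at E16.5. Adult replicates 1 and 2 were above every E16.5 sample and adult replicate 3 was among them. Its log2 change was 1.12 (SE 0.56, interval -0.19 to 2.42, adjusted p = 0.215 in limma with Benjamini-Hochberg adjustment), and without adult replicate 3 it was 1.71 and called (adjusted p = 0.0214 in limma). With rescaling to the same sum it was 0.32, with an adjusted p of 0.691 in limma.

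Tap2, a chain of the peptide transporter, measured 5.91, 23.5 and 3.28 FPKM in adult ChP and 2.47, 0.221 and 3.47 at E16.5. Its log2 change was 1.75 (interval -0.34 to 3.84, adjusted p = 0.221 in limma with Benjamini-Hochberg adjustment), and with quantile normalization it was called (adjusted p = 0.0388 in limma). Tap1, the other chain, measured 1.25, 10.7 and 0 FPKM in adult ChP and 0.778, 6.69 and 5.45 at E16.5, a log2 change of -0.58. Tap1 was not called, and its change was 0.74 with quantile normalization and 0.21 without adult replicate 3.

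MHC class II, which professional antigen-presenting cells use, was at or near 0 in most samples. H2-Aa, the class II alpha chain, was listed at 0 in all 6 samples, and the beta chain H2-Ab1 had 0.773 FPKM in adult replicate 1 and 1.15 in E16.5 replicate 2. Cd74, the invariant chain that guides class II to the endosome, measured 0, 9.62 and 0.96 FPKM in adult ChP and 0.547, 0.496 and 0 at E16.5 (log2 change 1.06, interval -1.06 to 3.17, adjusted p = 0.444 in limma with Benjamini-Hochberg adjustment). That value rests on adult replicate 2.

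Markers of the immune cells that could carry these transcripts were mostly at 0. Of 16 macrophage markers 7 were listed at 0 in every sample (Aif1, Cd68, C1qc, Tyrobp, Fcer1g, Itgam and Laptm5), the list's summed FPKM ran from 0.0695 to 21.1 in adult ChP and from 0.584 to 8.48 at E16.5, and none of its 4 tested genes was called. Its most abundant genes, Fcgr3 and C1qa, had values in adult replicate 2 alone (12.8 FPKM) and in E16.5 replicates 1 and 3 (6.98 and 2.78 FPKM). Of 8 dendritic cell markers 6 were at 0 throughout, and the list summed to 0 in each adult sample and to 3.19 to 7.35 FPKM at E16.5, mostly Zbtb46 and Batf3. All 5 B cell markers were at 0, as were 7 of 8 T and NK cell markers, with Cd3d at 0.226 FPKM in adult replicate 1.

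Adult replicate 2, the library with the highest Cd74, also had the highest macrophage sum, 21.1 FPKM, and the part of those cells in its Cd74 value was not tested. The libraries that carried Psmb8 and Psmb10 were those of E16.5, which also had higher sums for several other cell types. The red blood cell markers summed to 0 to 6.49 FPKM in adult ChP and 54.1 to 324 at E16.5, with Hba-a2 and Hbb-bs called higher at E16.5. The mesenchyme markers summed to 17.2 to 27.6 and 61.2 to 70.1 FPKM, with Pdgfra called, and the cell cycle markers to 4.83 to 45.8 and 51.7 to 96.7 FPKM, with Top2a called. The endothelial markers summed to 0.489 to 28.4 and 16.4 to 42 FPKM, with Kdr and Egfl7 the most abundant and none called. The neuron and progenitor markers summed to 0 to 3.24 FPKM in adult ChP and 0.542 to 84.6 at E16.5, where replicate 1 stood apart with Tubb3 at 36.2 and Stmn2 at 25.3 FPKM. The part of these cells in the proteasome values was not tested.

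**Figure D3:**
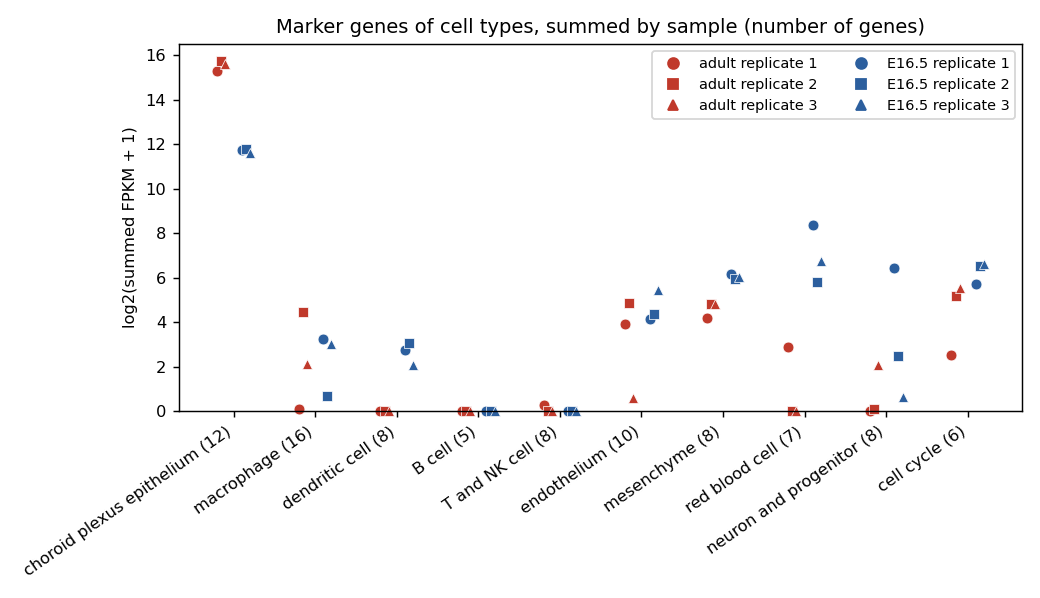
Summed FPKM of marker genes of each cell type in each sample, as log2(summed FPKM + 1), with the number of genes in brackets, adult samples in red and E16.5 samples in blue. The ChP epithelium list is far above the others at both ages, the B cell list is at 0 in all 6 samples, and the dendritic cell list is at 0 in every adult sample.

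The receptors for interferon were present at both ages, and Ifnar2 set itself apart by level. Ifnar2 (chr16:91372783-91405589, plus strand), the chain that binds type I interferon most tightly, measured 126, 121 and 37.9 FPKM in adult ChP and 26.7, 30.5 and 31.5 at E16.5, or 94.9 ± 49.5 and 29.6 ± 2.50 FPKM (SD, n = 3 each). All adult samples lay above all E16.5 samples, adult replicate 3 by the smallest margin. The log2 change was 1.47 (SE 0.50, interval 0.31 to 2.63), and the adjusted p of 0.0954 in limma with Benjamini-Hochberg adjustment missed the threshold. It was called with sample quality weights and without adult replicate 3, where the log2 change was 2.03 (adjusted p = 0.00701 in limma), and with samples rescaled to the same sum it was 0.66, with an adjusted p of 0.372 in limma.

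Ifnar1, the partner chain, measured 7.90, 6.32 and 4.03 FPKM in adult ChP and 3.84, 8.68 and 4.91 at E16.5. Its log2 change was 0.08 with an interval of -1.35 to 1.51, which leaves room for changes of more than a doubling either way, and its sign changed under rescaling to the same sum. Per length, Ifnar2 stood above Ifnar1 in every sample, by 15.9, 19.2 and 9.41 times in adult ChP and 6.97, 3.51 and 6.41 times at E16.5, so the lowest adult ratio was above the highest embryonic ratio. That ratio is a description, chosen after its values were seen. Of the 50-base stretches of Ifnar2 7.89% also occur in another gene, against 0.824% for Ifnar1, which adds uncertainty to the ratio.

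Both chains of the interferon gamma receptor lay near Ifnar1 in mean level and below Ifnar2, and were more scattered. Over the 6 samples the means were 6.16 FPKM for Ifngr1 and 6.15 for Ifngr2, beside 5.95 for Ifnar1 and 62.3 for Ifnar2. Ifngr1, the binding chain, ran from 0 to 7.31 FPKM in adult ChP and from 0.462 to 15.0 at E16.5, and Ifngr2, the signalling partner, from 1.78 to 6.29 and from 1.34 to 16.3. Their log2 changes, -0.75 and -0.89, lay close to the median of all genes, and both signs turned with quantile normalization.

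All 5 transcription factors had fitted changes below 0, and none was called. Their log2 changes ran from -1.54 to -0.77, with a median of -1.45 beside -0.86 for all tested genes, and in adult replicate 3 a value above 0 was listed for Irf3 alone. Quantile normalization turned Stat2, Irf1 and Irf9 to values just above 0. Irf3, the factor that viral nucleic acid sensing activates without new synthesis, was the most abundant, with 0.698, 14.0 and 5.36 FPKM in adult ChP and 10.8, 14.5 and 20.8 at E16.5 (log2 change -1.54, interval -3.52 to 0.44, adjusted p = 0.25 in limma with Benjamini-Hochberg adjustment).

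Stat2, part of the complex that reads the ISRE, measured 2.13, 0.215 and 0 FPKM in adult ChP and 5.09, 2.94 and 2.56 at E16.5. Its groups did not overlap, but its adjusted p was 0.182 in limma with Benjamini-Hochberg adjustment. Irf9, which gives that complex its DNA contact, ran from 0 to 6.08 and from 3.05 to 6.17 FPKM. Irf7, the factor that amplifies type I interferon, ran from 0 to 6.14 and from 1.56 to 9.35 FPKM, and Irf1, a factor downstream of interferon gamma, from 0 to 4.89 and from 0.853 to 3.21. In adult ChP the values of Irf1 and Irf7 rest on replicate 2, the deepest adult library, since both were listed at 0 in the other 2.

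The antiviral effectors fell into a few abundant membrane proteins and a long row at or near 0. Ifitm2 (chr7:140954837-140955987, minus strand) and Ifitm3 (chr7:141009586-141010770, minus strand) are neighbours on the same chromosome, and their proteins restrict viruses as they enter cells. Ifitm2 measured 15.7, 34.3 and 1.54 FPKM in adult ChP and 64.1, 44.4 and 97.7 at E16.5, with every adult sample below every E16.5 sample. Its log2 change of -2.54 (SE 0.92, interval -4.67 to -0.40) had an adjusted p of 0.111 in limma with Benjamini-Hochberg adjustment, and it was called without adult replicate 2 and when samples were rescaled to the same sum, while without adult replicate 3 the change was -1.45 and not called. Of its 50-base stretches 48.5% also occur in another gene, so its level is uncertain.

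Ifitm3 had a fitted change of the opposite sign and was not called. It measured 69.5, 60.9 and 0 FPKM in adult ChP and 0, 5.26 and 2.75 at E16.5, and 10% of its 50-base stretches occur elsewhere. Its log2 change was 2.51 with an interval of -1.36 to 6.38 (adjusted p = 0.332 in limma with Benjamini-Hochberg adjustment). Without adult replicate 3, where it was listed at 0, the change was 4.53 and called (adjusted p = 0.0157 in limma).

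Bst2, the tether that holds budding virus at the cell surface, measured 2.27, 28.9 and 0 FPKM in adult ChP and 0, 17.5 and 0.603 at E16.5. Replicate 2 was highest at each age, and the log2 change of 0.57 changed sign when adult replicate 2 was left out. Ifit2, which binds foreign RNA, measured 4.22, 0 and 0 FPKM in adult ChP and 5.53, 3.03 and 6.15 at E16.5 (log2 change -1.72, interval -3.66 to 0.22, adjusted p = 0.2 in limma with Benjamini-Hochberg adjustment).

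The effectors most used as marks of an interferon response were at or near 0 in most samples. Isg15, the ubiquitin-like modifier whose promoter is printed above with its 3 ISRE matches, was listed at 0 in all 6 samples, as were the GTPases Mx1 and Gbp2 and the Isg15 protease Usp18. Ifit1 had 3.80 FPKM in adult replicate 2 and 0 elsewhere, Ifit3 had 0.0352 in E16.5 replicate 2, and Gbp3 had 0.047 in adult replicate 2. Of the 50-base stretches of Ifit3 51.2% also occur in another gene, so its level is uncertain. Ifit3b, with 45% shared, had 5.65 FPKM in E16.5 replicate 2, and whether reads of Ifit3 were assigned to it was not tested. Rsad2 had 0.0315 FPKM in adult replicate 2 and 1.20 and 4.43 in E16.5 replicates 2 and 3, and Xaf1 had 0.399, 1.17 and 0.129 FPKM in the E16.5 samples with 0 in each adult one. At the estimated depths 3 reads of Isg15 would be worth 1.38, 0.615 and 1.75 FPKM in the adult samples and 0.435, 0.347 and 0.367 at E16.5, so lower levels would not have been detectable, and a failed estimate could hide higher ones. Of the 11 genes with the ISRE letters in their promoter window, B2m and Ifitm2 had the highest means over the 6 samples, 67.8 and 43.0 FPKM, while Isg15 and Gbp2 were listed at 0 throughout.

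The other 124 genes of these pathways, taken from 6 lists, gave the background in which the 35 sit. Of them 74 were tested, 26 were listed at 0 in all 6 samples, 3 were called higher in adult ChP and 1 higher at E16.5, beside 2.12% and 8.83% of all tested genes. Their median log2 change was -0.62, beside -0.86. All adult samples lay above all E16.5 samples for 8 and below them for 13, beside 7.39% and 31% of all tested genes, with 53 overlapping.

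Ifi27, a small hydrophobic protein of the interferon alpha-inducible protein 27 family, had the highest log2 change of the 74 tested. It measured 165, 211 and 142 FPKM in adult ChP and 10.2, 15.0 and 5.40 at E16.5, or 173 ± 34.8 and 10.2 ± 4.79 FPKM (SD, n = 3 each). The log2 change was 4.04 (SE 0.42, adjusted p = 0.00389 in limma with Benjamini-Hochberg adjustment), and it was called under all 17 alternatives. It was the only call among the 26 tested genes of the other interferon-induced list, of which 14 of 54 were at 0 in every sample. The most abundant gene of that list, Ifi30, a lysosomal thiol reductase that also serves class II peptide handling, measured 47.8, 86.9 and 316 FPKM in adult ChP and 37.6, 32.5 and 30.6 at E16.5, and was not called (adjusted p = 0.125 in limma with Benjamini-Hochberg adjustment).

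The chaperones that fold class I heavy chains and other glycoproteins held the remaining adult calls. Canx (calnexin) measured 323, 379 and 250 FPKM in adult ChP and 96.3, 101 and 134 at E16.5 (log2 change 1.51, SE 0.27, adjusted p = 0.0201 in limma with Benjamini-Hochberg adjustment). Pdia3, the disulphide isomerase that works beside tapasin, measured 249, 209 and 313 FPKM in adult ChP and 134, 119 and 107 at E16.5 (log2 change 1.08, SE 0.26, adjusted p = 0.0414 in limma with Benjamini-Hochberg adjustment). Calr (calreticulin), the most abundant of the list, measured 888, 1315 and 1074 FPKM and 703, 647 and 584 FPKM, and its adjusted p was 0.08 in limma with Benjamini-Hochberg adjustment. These proteins fold many secreted and membrane proteins besides class I. The calls were lost under 6 of 17 alternatives for Canx and 9 of 17 for Pdia3, and when samples were rescaled to the same sum the log2 changes were 0.69 and 0.25 (adjusted p = 0.199 and 0.522 in limma with Benjamini-Hochberg adjustment).

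The other lists held no call for adult ChP. For interferon signalling 0 of 14 tested genes were called, with Ptpn11, a phosphatase, at 113 ± 32.7 FPKM in adult ChP and 71.8 ± 5.19 at E16.5 (SD, n = 3 each) and Irf2, a repressor of the ISRE, at 20, 23.9 and 0 FPKM and 26.4, 45.3 and 36.6 FPKM. For nucleic acid sensing 0 of 9 were called, with the kinase Tbk1 at 32.2 ± 16.7 and 28.8 ± 5.82 FPKM and the adaptor Traf3 at 12.7 ± 6.59 and 15.1 ± 6.82 FPKM (SD, n = 3 each). For class II handling 0 of 8 were called, and its abundant genes were the lysosomal proteases Ctsl, at 189 ± 44.8 and 153 ± 18.8 FPKM, and Lgmn, at 121 ± 28.9 and 204 ± 22.3 FPKM (SD, n = 3 each). In these 3 lists 1, 3 and 2 genes had an unadjusted p under 0.05 in limma, beside 3626 of all 11601. For the proteasome list 1 of 7, Pomp, was called higher at E16.5 (8.83% of all tested genes were), and 4 of 7 had every adult sample below every E16.5 sample (31% of all tested genes do), among them the standard subunit Psmb6 at 0, 34.0 and 71.0 FPKM in adult ChP and 325, 248 and 220 at E16.5.

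**Figure D4:**
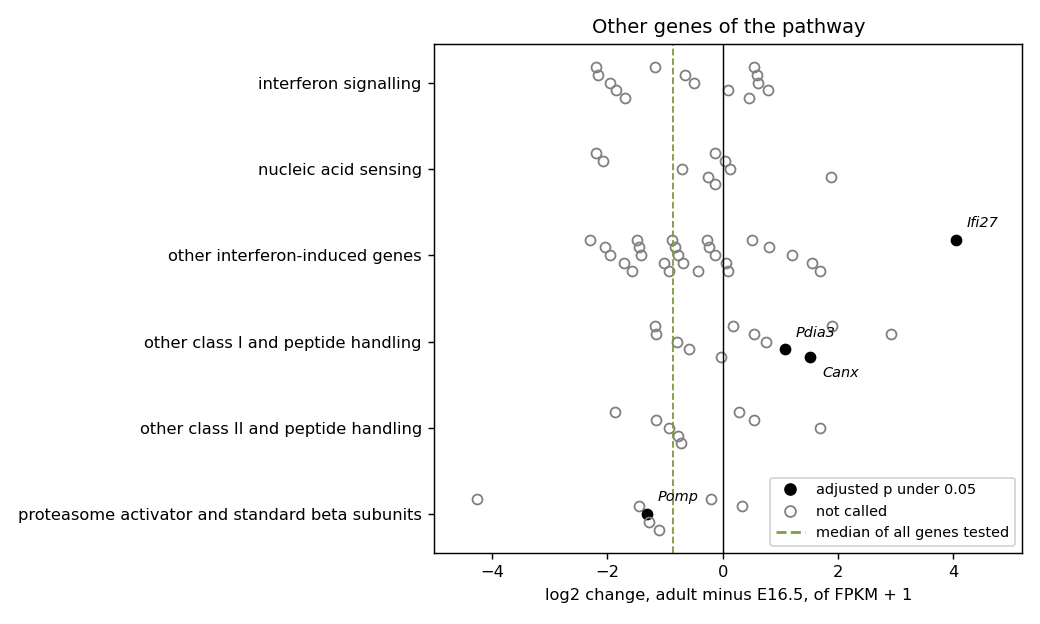
Change between ages (adult minus E16.5, log2 of FPKM + 1) of the 74 tested genes of the 6 other pathway lists, filled where the adjusted p is under 0.05 in limma. Ifi30 and Ifih1 each belong to a second list and are drawn in both rows. Ifi27 lies far to the right at 4.04, Canx and Pdia3 at 1.51 and 1.08, and Pomp to the left at -1.32, with the dashed line at the median of all genes tested.

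How far a call depends on single libraries can be read from the fits that left out each in turn. Without adult replicate 3 the number of the 35 genes called higher in adult ChP went from 0 to 3 (Tapbp, Ifnar2 and Ifitm3) and the number higher at E16.5 from 1 to 0. The whole table also gained calls in that fit. It held 1721 calls among 11729 genes tested, 357 of them higher in adult ChP, against 1270 among 11601 and 246 with all samples. Without E16.5 replicate 1, the library with the neuronal transcripts, 57 genes of the whole table were called and none of the 35. Without E16.5 replicates 2 and 3 the table held 43 and 112 calls, against 1270 with all samples, so fits with 2 E16.5 samples could call few genes of any kind.

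**Figure D5:**
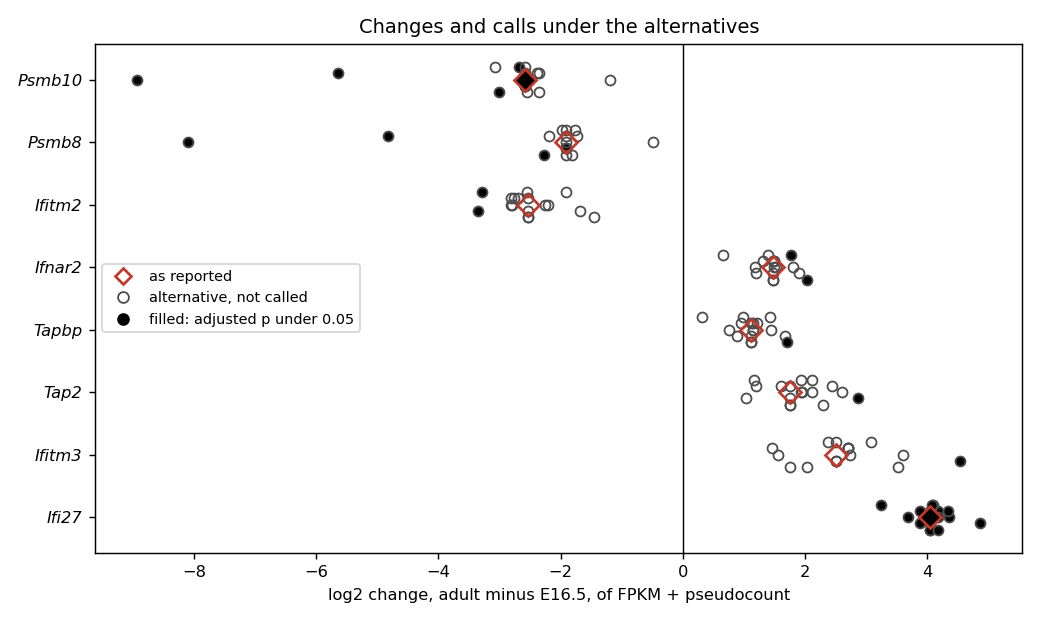
Log2 change (adult minus E16.5) of the 7 genes called as reported or under an alternative, and of Ifi27, as reported (diamond) and under the other scalings, pseudocounts, filters and left-out samples (circles), filled where the adjusted p is under 0.05 in limma. Ifi27 is filled throughout, Psmb10 and Psmb8 are filled under some settings and reach -8.93 and -8.10 with the smallest pseudocount, and Ifnar2, Tapbp and Ifitm3 are filled without adult replicate 3.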

How the data were processed

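The authors deposited 1 table of FPKM for 3 adult and 3 E16.5 ChP TRAP samples. The submitters' processing notes name STAR 2.4.0, Cufflinks and mm10, and the reads were ribodepleted SMARTer libraries. Samples were grouped by GEO's titles. FPKM were tested as log2(FPKM + 1) with limma 3.58.1 (R 4.3.3, trend on mean level) over the 11601 genes with a mean above 1 FPKM, two-sided, with Benjamini-Hochberg adjustment and a threshold of 0.05. No counts were used here, so no count test was run. Depth was estimated from the steps between low values among 1554 genes. Only 26 to 45 low values served in a library, so the estimate is rough. Of these values 66.7 to 84.8% lay within 0.1 read of a whole number, too few to recover reads. The estimate and the promoter motifs were settled after the data were seen. Overlap with other genes was the share of 50-base stretches found elsewhere in GENCODE M21 transcripts, which also gave gene positions. Genes described in full were those called in any fit, those whose groups did not overlap and the most abundant of each role, and, of the other lists, the called and the 2 most abundant. The genes, lists and tests were chosen with earlier results of these data known. The fit was tested on simulated data, with changes put only into genes of higher level at E16.5 and small spread. That test does not cover low genes with many zeros, such as Psmb8 and Psmb10.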

Additional observations from a re-analysis of the deposited data

How the results depend on the processing

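The number of the 35 genes called higher in adult ChP (0) was 1 with quantile normalization and with sample quality weights and 0 to 3 with a sample left out. The number higher at E16.5 (1) was 2 with a pseudocount of 0.1 or 0.01, without the filter on low values and in limma without a trend, 3 when rescaled to the same sum, 0 with only genes above 0 in all 6 samples, median-ratio scaling, quantile normalization and quality weights, and 0 to 1 with a sample left out. Of the other pathway genes, those higher in adult ChP (3) were 1 when rescaled to the same sum, 7 with quantile normalization, 1 without a trend and 1 to 3 with a sample left out. Those higher at E16.5 (1) were 3 with either smaller pseudocount, 2 with genes above 0 in all samples, 11 when rescaled to the same sum, 2 when so rescaled without Mir6236, 0 with median-ratio scaling and with quantile normalization, 4 with quality weights and 0 to 5 with a sample left out. The median log2 change of the members over that of all genes (0.09) was -0.23 and -0.76 with pseudocounts of 0.1 and 0.01, 0.98 with only genes above 0 in all 6 samples (8 of the 35) and -0.42 to 0.60 with a sample left out. The calls in the whole table moved as well, from 564 to 3357 over these settings other than left-out samples, and from 3.54 to 53% of them were higher in adult ChP (19.4% as reported). Rescaling to the same sum gave 3357 calls among 11601 genes, with 119 higher in adult ChP and the rest higher at E16.5. Quantile normalization gave 1073 calls, with 569 higher in adult ChP. Quality weights gave 1594 calls (18.3% higher in adult ChP) and median-ratio scaling 1008 (34.5%). The counts above are to be read beside these. The causes were not tested, and no setting matched depth between the samples.

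These log2 changes turned sign, none of them called: with quantile normalization Tap1 (0.74), Ifngr1 (0.13), Ifngr2 (0.02), Stat2 (0.03), Irf1 (0.41) and Irf9 (0.15); H2-D1 with a pseudocount of 0.01 (-0.62); and Ifnar1 rescaled to the same sum (-0.62) and without Mir6236 (-0.06). With a sample left out, H2-D1 ran from -0.19 to 1.97, Tap1 from -1.57 to 0.21, Ifnar1 from -0.13 to 0.37, Ifngr1 from -1.80 to 0.18 and Bst2 from -0.78 to 1.86.

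Samples with the same replicate number deviated together hardly at all (correlations 0.0009, 0.044 and 0.015), so the numbers were not taken as pairs. With the replicate block 564 genes were called, with 0 of the 35 higher in either age (Psmb10 had an adjusted p of 0.0925 in limma), and 1 other pathway gene, Ifi27, higher in adult ChP and 0 higher at E16.5.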
